A study of Mus musculus with 12 samples.

Results

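The homeobox genes Pax6, Gsx1 and Gsx2 were followed in transfected cells of the mouse medial telencephalon. They were chosen by name as homeobox genes of the pallial-subpallial boundary, and every probe that carried one of the 3 genes was taken. They made up 3 of 19751 named genes and 5 of 39429 probes. Pax6 had a main probe (A_55_P2022946) and a second probe (A_52_P469306), Gsx1 had 1 probe (A_55_P2085075), and Gsx2 had a main probe (A_55_P2052071) and a second probe (A_51_P520468). The main probe of a gene is the one with the highest mean over all arrays.

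The study compared 4 groups of 3 replicates, each hybridised to 1 one-colour array, 12 arrays in all. All groups came from CD-1 mouse embryos whose medial telencephalon was electroporated at E11.5 with a vector for nuclear EGFP, and GFP-positive cells were sorted 24 hours later, at E12.5. The groups received control siRNAs, siRNA set 1 or siRNA set 2 against Dmrt3 and Dmrta2, or an expression vector for Dmrta2. The control siRNAs were the only control, so the plasmid group was compared with cells that had received siRNAs and no empty expression plasmid was measured. The labels call the replicates independent without naming litters or embryos, so each p-value measures the spread between these samples. The replicate number was also the slide, each slide held 1 array of every group at a fixed position, and position and group cannot be told apart.

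Pax6 encodes a paired-box and homeodomain transcription factor of cortical progenitors, highest in the lateral pallium and low near the dorsal midline. Gsx2 and Gsx1 encode ParaHox homeodomain factors of ventral, subpallial progenitors, where Gsx2 specifies the lateral ganglionic eminence and Gsx1 shares part of its role. Pax6 and Gsx2 oppose each other across the pallial-subpallial boundary. Dmrt3 and Dmrta2 encode DM-domain transcription factors of the medial pallium, and their loss and gain asks how far they set this dorsal to ventral order.

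The promoter windows of Pax6 are shown because Pax6 is the member whose level separated the groups. RefSeq (GRCm38.p6) lists 2 start sites, and each window holds the 250 bases before the start on the plus strand. Capitals mark TAAT or its reverse complement ATTA, the core bound by homeodomains.
Pax6 start 1, chr2:105668646-105668895: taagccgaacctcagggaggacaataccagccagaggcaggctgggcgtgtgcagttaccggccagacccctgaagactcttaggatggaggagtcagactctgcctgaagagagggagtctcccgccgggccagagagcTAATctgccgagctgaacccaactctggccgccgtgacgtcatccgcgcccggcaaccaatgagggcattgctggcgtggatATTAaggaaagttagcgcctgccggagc
Pax6 start 2, chr2:105682213-105682462: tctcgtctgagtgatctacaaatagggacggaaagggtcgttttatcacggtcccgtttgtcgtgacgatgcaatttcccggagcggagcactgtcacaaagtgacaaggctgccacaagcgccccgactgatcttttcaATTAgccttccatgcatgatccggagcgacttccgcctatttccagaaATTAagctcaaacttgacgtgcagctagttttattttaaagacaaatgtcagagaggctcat
Each Pax6 window held 2 matches to the core, as did the Gsx1 window (chr5:147188446-147188695), and the Gsx2 window (chr5:75075351-75075600) held 1. Of 32851 promoter windows of this length, 54.9% held at least 1 match, with a median of 1. A Dmrt core, searched as ACAATGT and ACATTGT, was in none of these 4 windows and in 2.56% of all windows. The palindrome TAATTA, which contains the homeodomain core, was in none of the 4 and in 4.84% of all. These matches describe the letters of the windows and were not tested against binding.

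The targeted transcripts were read first. Dmrt3 stood at a log2 level of 0.06, 0.33 and 0.68 on slides 1, 2 and 3 of the control arrays, where a log2 level is the log2 processed signal minus the 75th percentile of its array. It stood at -1.13, -0.13 and -0.72 with set 1 and at -0.81, -0.04 and -0.47 with set 2, so all siRNA arrays lay below all control arrays. The difference of both sets from controls was -0.90 ± 0.26 (SE; limma adjusted p = 0.161, or 0.028 when slides were blocked). Dmrta2 differed by -0.46 ± 0.14 (limma adjusted p = 0.207). With set 1 it stood at 2.14, 1.84 and 1.89, below all control arrays. With set 2 it stood at 2.41, 2.44 and 1.92 and overlapped the controls. The Dmrta2 probe was no higher on the arrays labelled Dmrta2 overexpression, at 2.10, 2.18 and 1.93 against 2.72, 2.37 and 2.61 in controls. Whether that probe reads the plasmid transcript is not known here, so it does not check the label, and these arrays are called labelled overexpression below.

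Pax6 was higher with both siRNA sets and lower on the arrays labelled overexpression, and the gap between those treatments passed the test. With control siRNAs, the main Pax6 probe stood at log2 levels of -0.50, -0.31 and -0.41 on slides 1, 2 and 3. With set 1 it stood at 0.23, 1.30 and 0.52, and with set 2 at 0.04, 1.25 and 0.58. On the arrays labelled overexpression it stood at -0.99, -0.83 and -0.78. No array of either siRNA set overlapped the controls, and none labelled overexpression did either. The order of the groups, from low to high, was labelled overexpression (mean -0.87 ± 0.11, SD, n = 3), control siRNAs (-0.41 ± 0.10), set 2 (0.62 ± 0.61) and set 1 (0.68 ± 0.55). The spread within each siRNA set was several times that of the other groups and came largely from slide 2, which gave the highest value in both sets. On such bulk arrays, more Pax6-expressing cells and more Pax6 RNA per cell cannot be told apart.

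**Figure D1:**
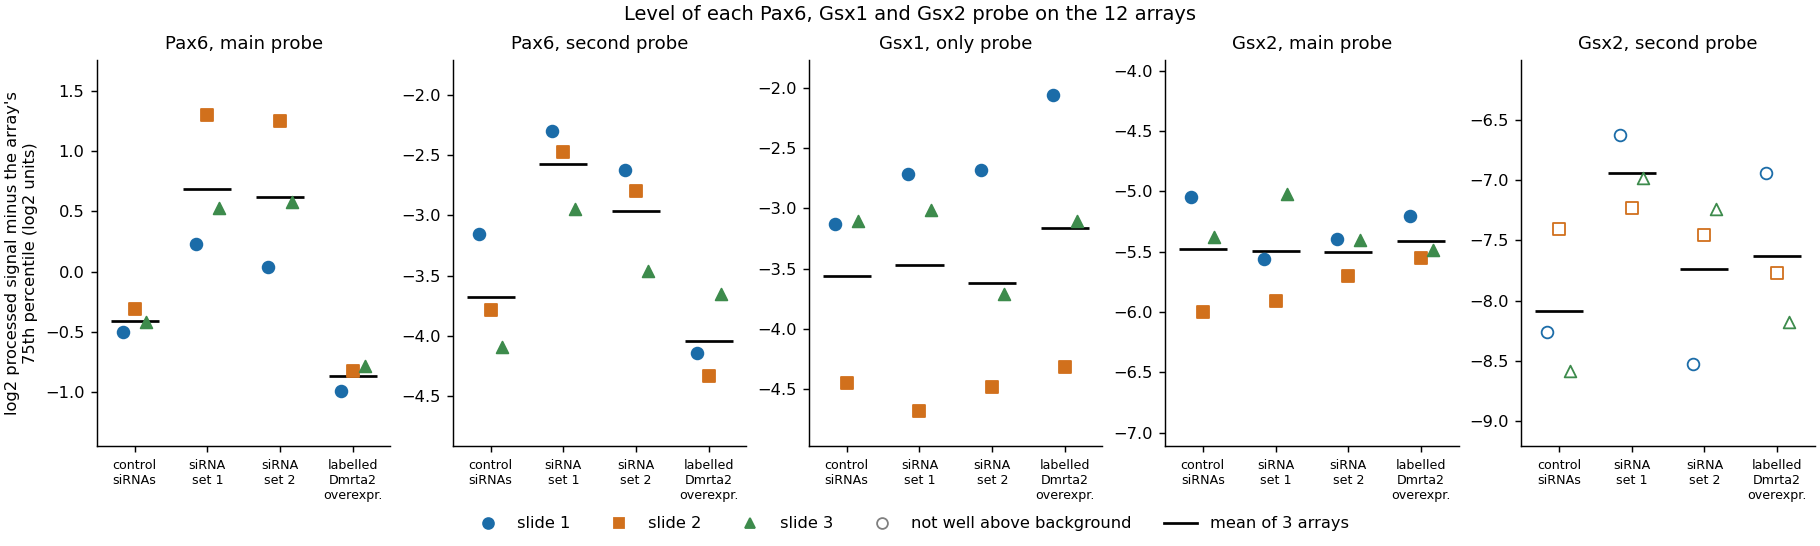
Each panel plots the log2 level (processed signal minus the 75th percentile of the array, log2 units) of 1 probe on the 12 arrays, by group and slide, with a bar at the mean of 3 arrays, and every panel spans the same number of log2 units. The main Pax6 probe runs from -0.99 on an array labelled overexpression to 1.30 in set 1, the Gsx1 probe is lowest on slide 2 in every group, and the second Gsx2 probe is not well above background on any array.

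Averaged over both siRNA sets, Pax6 was 1.06 ± 0.27 log2 units above controls (2.09-fold, 95% interval 0.47 to 1.66). This did not pass the threshold of an adjusted p under 0.05 (limma adjusted p = 0.117), which 0.592% of the 15369 genes tested passed as higher. With the slide as a block it passed (limma adjusted p = 0.0376), as 1.17% of genes did. The difference was positive within each slide, at 0.64, 1.59 and 0.97, and without slide 2 of both siRNA sets it was 0.75 (limma adjusted p = 0.121). All 6 siRNA arrays lay above all 3 control arrays, which was so for 3.29% of genes, and Pax6 ranked 192 of 15369 from the largest positive difference. The exact two-sided permutation test gave p = 0.0357 (0.321 adjusted over the 18 tests of the 3 genes).

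The siRNA sets gave much the same Pax6 value. Set 1 was 1.09 ± 0.31 above controls (limma adjusted p = 0.220, or 0.0715 when slides were blocked), and 0.15% of genes were called higher without and 0.573% with the block. Set 2 was 1.03 ± 0.31 above (limma adjusted p = 0.173, or 0.0506 with the block), beside 0.664% and 1.5% of genes. All 3 arrays of a set lay above all 3 controls for 7.47% of genes in set 1 and 10.2% in set 2. These comparisons share their control arrays. Set directly against each other, set 2 differed from set 1 by -0.06 ± 0.31, with an interval of -0.75 to 0.63, so differences of that size could not be detected here. In this comparison 0.0781% of genes were called.

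On the arrays labelled overexpression, Pax6 was at 72.8% of the control level, a log2 difference of -0.46 ± 0.31 (95% interval -1.15 to 0.23, limma adjusted p = 1.00). Among all genes, 0 were called lower in this comparison and 43 higher (0.28%), and 688 (4.48%) had an unadjusted limma p under 0.05 in either direction. All 3 arrays lay below all 3 controls, as for 1.7% of genes, and the differences within slides were -0.49, -0.51 and -0.37. The error is the one shared by all 4 groups. Fitted with only these 6 arrays it was 0.12 and the limma adjusted p was 0.473. The exact permutation test gave p = 0.1, the smallest that 3 arrays against 3 allow.

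Pax6 fell to 34.8% between the siRNA sets and the arrays labelled overexpression. The log2 difference was -1.52 ± 0.27 (95% interval -2.12 to -0.93, limma adjusted p = 0.0173, or 0.00543 when slides were blocked). In this comparison 0.833% of genes were called lower (1.48% with the block), and Pax6 had the 28th lowest difference. Within slides 1, 2 and 3 it was -1.12, -2.10 and -1.34, and no array of these groups overlapped, as for 3.29% of genes. The exact permutation p was 0.0119, the smallest this design allows (0.214 adjusted over 18 tests). The limma call was lost when any 1 of the arrays labelled overexpression was left out, with adjusted p-values of up to 0.0797, and was kept without any 1 of the other 9. In all, 17 of 15369 genes (0.111%) had every siRNA array above and every array labelled overexpression below the controls, and Pax6 was 1 of them.

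**Figure D2:**
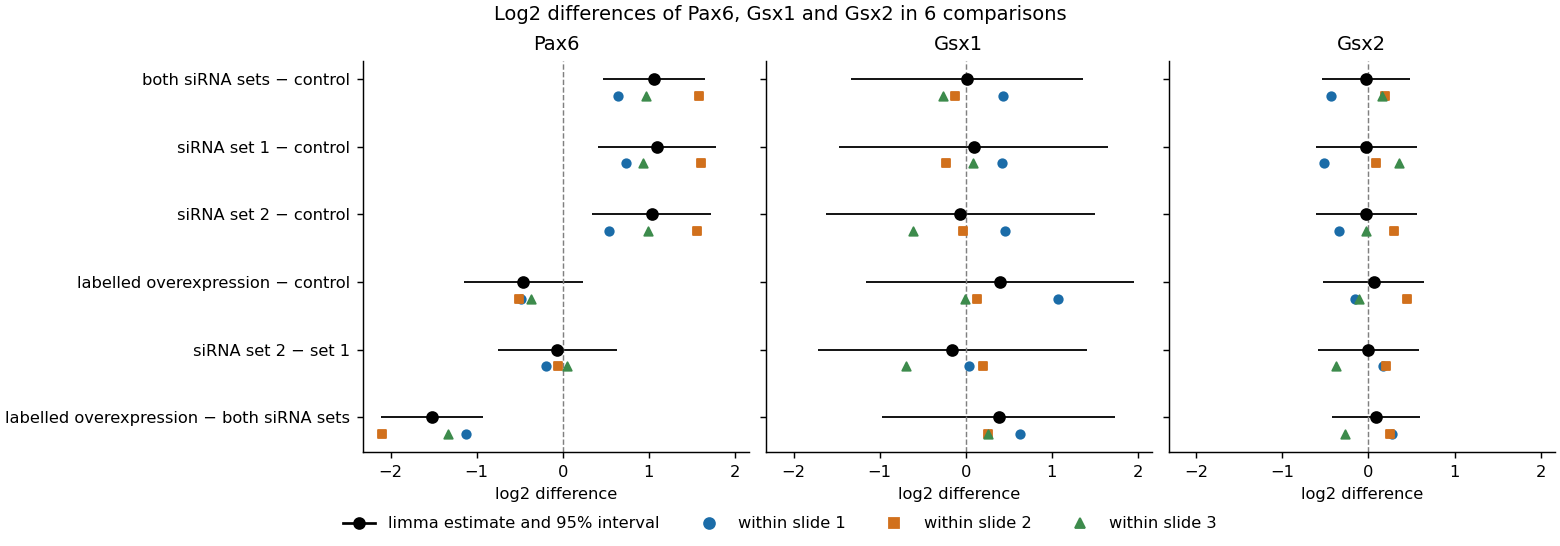
Points in black give the log2 difference of each gene in 6 comparisons with its 95% interval from limma, and coloured symbols below them the difference within each slide. For Pax6 the within-slide values keep 1 sign in every comparison with controls and in the comparison of labelled overexpression with the siRNA sets, while for Gsx1 and Gsx2 all intervals hold 0.

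**Figure D3:**
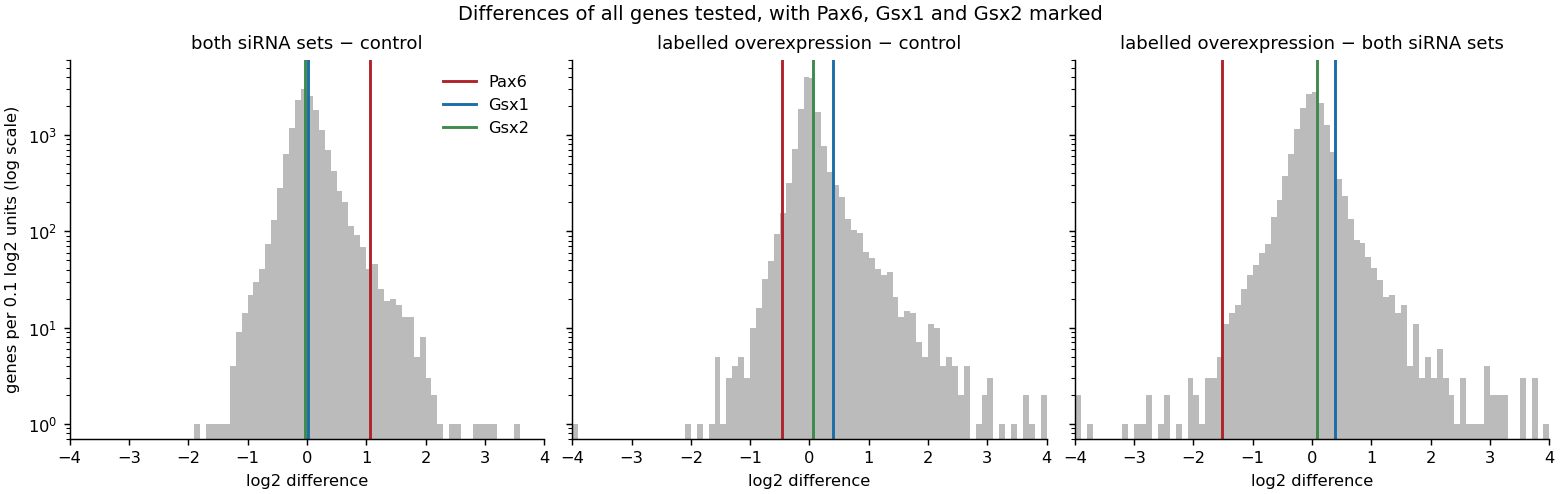
Bars count the 15369 genes tested per 0.1 log2 units of difference on a log axis, in 3 comparisons, with lines at Pax6, Gsx1 and Gsx2; differences beyond the axis are in the end bars. Pax6 lies in the upper tail for the siRNA sets (1.06) and in the lower tail for labelled overexpression against them (-1.52), and Gsx2 lies near 0 in all 3 panels.

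The second Pax6 probe gave the same order of groups. Its SD was larger than that of the main probe in controls (0.48 against 0.10) and on the arrays labelled overexpression (0.35 against 0.11). In sets 1 and 2 it was smaller (0.34 against 0.55, and 0.44 against 0.61). Its log2 levels on slides 1, 2 and 3 were -3.16, -3.79 and -4.09 in controls, -2.30, -2.47 and -2.95 with set 1, -2.62, -2.80 and -3.46 with set 2, and -4.14, -4.33 and -3.66 on the arrays labelled overexpression. Here set 2 and labelled overexpression each overlapped the controls. In a fit of every probe, both siRNA sets were 0.91 ± 0.26 above controls (limma adjusted p = 0.235, when 0.287% of probes were called) and labelled overexpression was 1.28 ± 0.26 below the siRNA sets (limma adjusted p = 0.0496, when 1.21% of probes were called). Within slides, labelled overexpression against controls was -0.98, -0.54 and 0.43 with this probe, so its direction on slide 3 was opposite to that of the main probe. Over the 12 arrays the probes correlated at 0.739, and at 0.895 after each slide's mean was subtracted. After each group's mean was subtracted the correlation was -0.08. That step leaves the slide differences in, so it does not show whether the probes also share variation within slides. Which Pax6 transcripts each probe reads is not known here.

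A probe for Pax6os1, the antisense RNA of the Pax6 locus, was added after its values were seen. It stood at -3.12, -3.74 and -3.37 in controls, -2.89, -3.45 and -3.14 with set 1, -2.55, -2.26 and -2.86 with set 2 and -3.79, -3.78 and -3.67 on the arrays labelled overexpression. Set 2 lay above all controls, while set 1 and labelled overexpression overlapped them. Labelled overexpression was 0.89 ± 0.18 below the siRNA sets (limma adjusted p = 0.0465 over all probes). The difference of both siRNA sets from controls was 0.55 ± 0.18 (limma adjusted p = 0.325).

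Gsx1 did not separate the groups in any comparison, and its level followed the slide. On slides 1, 2 and 3 it stood at log2 levels of -3.13, -4.45 and -3.10 in controls, -2.72, -4.68 and -3.01 with set 1, -2.68, -4.48 and -3.71 with set 2, and -2.06, -4.32 and -3.10 on the arrays labelled overexpression. Slide 2 was the lowest in all 4 groups, with a mean of -4.48 against -2.65 on slide 1 and -3.23 on slide 3. The slide held 88.0% of the variance of Gsx1 over the 12 arrays and the group 4.72%. The medians over all genes were 26.1% for the slide and 28.6% for the group, and for Pax6 the shares were 13.0% and 79.3%.

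Averaged over both siRNA sets, Gsx1 was 0.02 ± 0.61 above controls, with a 95% interval of -1.33 to 1.37. On the arrays labelled overexpression it was 0.40 ± 0.70 above (interval -1.16 to 1.96). With the slide as a block the first error was 0.20 and the limma adjusted p-values were 0.975 and 0.945. Within slides 1, 2 and 3, labelled overexpression was 1.07, 0.13 and -0.003 log2 units from controls, so the positive mean came from slide 1. The siRNA difference was 0.44, -0.13 and -0.26 within slides and changed sign between them.

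Gsx2 was read close to background. Its main probe was well above background on all 12 arrays, with processed signals from 10.8 to 21.4, while the lowest signal counted as well above background ran from 6.59 to 9.70 over the arrays. Its log2 levels on slides 1, 2 and 3 were -5.05, -6.00 and -5.38 in controls, -5.56, -5.91 and -5.02 with set 1, -5.39, -5.70 and -5.40 with set 2, and -5.20, -5.55 and -5.49 on the arrays labelled overexpression. All groups overlapped. Both siRNA sets differed from controls by -0.03 ± 0.23 (interval -0.54 to 0.48) and labelled overexpression by 0.06 ± 0.27 (interval -0.53 to 0.65), with limma adjusted p-values of 0.986 and 1.00. A 2.09-fold rise like that of Pax6 lies outside the first interval, although near background a signal can understate a change. The second Gsx2 probe, with signals of 1.70 to 7.62, was well above background on 0 of 12 arrays and was not tested.

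Other members of both families were read alongside. Of 9 Pax genes, 6 were tested, since Pax1, Pax5 and Pax9 did not pass the filter, and 1 was called with the siRNA sets, where 0.703% of all genes were called in either direction. This was Pax3, a marker of dorsal neural tube progenitors. It stood at -4.61, -5.21 and -4.43 in controls, -2.97, -2.77 and -3.00 with set 1, -3.60, -3.73 and -4.14 with set 2 and -4.73, -4.91 and -4.59 on the arrays labelled overexpression. All siRNA arrays lay above all controls, and those labelled overexpression fell within the control range. Pax3 rose by 1.38 ± 0.18 with the siRNA sets (limma adjusted p = 0.0116), and differed by 0.00 ± 0.21 on the arrays labelled overexpression. The family's median difference with the siRNA sets was 0.44, beside 0.00 over all genes. Of the ParaHox genes, 3 of 6 were tested (Gsx1, Gsx2 and Pdx1, the last on 0 of the control arrays well above background), 0 were called by limma, and 0 had an unadjusted limma p under 0.05 with either treatment against controls.

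Genes of Pax6-dependent programmes in the pallium and antihem were listed to set beside it, and no call was made among them. The list also holds general pallial genes such as Emx1, Emx2 and Lhx2, so not every member need depend on Pax6. Of 19 listed genes 18 were tested (Olfm3 was not), and limma called 0 with the siRNA sets, on the arrays labelled overexpression or between these, with 2, 1 and 5 at an unadjusted p under 0.05. Over all genes the shares at that unadjusted p were 12%, 4.48% and 13.3%. Their median difference was 0.18 with the siRNA sets, -0.03 on the arrays labelled overexpression and -0.25 between them, beside 0.00, 0.01 and 0.01 over all genes. Over the 16 members that cleared background on every array, the siRNA median was 0.05. Neurog2, a proneural factor and direct Pax6 target, stood 0.39 ± 0.19 above controls with the siRNA sets, and Neurog1, its paralogue, 0.03 ± 0.18. Eomes, the factor of intermediate progenitors, was 0.30 ± 0.21 above controls with the siRNA sets and 0.63 ± 0.21 below them on the arrays labelled overexpression (limma adjusted p = 0.192). Fabp7, a fatty acid binding protein of radial glia, was at 0.32 ± 0.20 with the siRNA sets. The antihem genes Sfrp2, a secreted Wnt inhibitor, and Dbx1 were at -0.22 ± 0.16 and -0.01 ± 0.45. Dmrta1, a Dmrt relative in the same list, was at 0.75 ± 0.31 with the siRNA sets and differed from them by -1.10 ± 0.31 on the arrays labelled overexpression (limma adjusted p = 0.111), a pair of values picked after they were seen.

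The Gsx-dependent list gave 1 call on the arrays labelled overexpression. Of 20 listed genes 19 were tested (Sp9 was not). With the siRNA sets limma called 0, with 6 higher and 2 lower at an unadjusted p under 0.05, which 12% of all genes passed. With the slide as a block it called Isl1, and 1.52% of all genes were called. The median was 0.13, and -0.05 over the 12 members that cleared background on every array, so the sign of the median rests on dim genes. The call on the arrays labelled overexpression was Ebf1, a factor of early striatal and other neurons, at -2.50, -2.79 and -2.52 against -4.13, -3.66 and -4.04 in controls. It rose by 1.34 ± 0.18 (limma adjusted p = 0.0118), with no overlap, in a comparison that called 0.28% of all genes.

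Among the other genes of this list, the homeobox genes Dlx2, Dlx5 and Meis2 were at 0.86 ± 0.35, -0.27 ± 0.37 and -0.26 ± 0.14 with the siRNA sets, and the zinc finger gene Sp8 at -0.29 ± 0.16. The Meis2 average describes neither set. Meis2 stood at 2.89, 2.47 and 2.40 in controls, 2.04, 1.89 and 1.74 with set 1 and 2.90, 2.67 and 2.69 with set 2. With the block limma called it lower in set 1, as 0.176% of genes, and higher in set 2 than in set 1, as 0.0911% of genes. Isl1, a factor of striatal projection neurons, was at 1.16 ± 0.24 with the siRNA sets (limma adjusted p = 0.0699, and 0.0366 with the block), and Olig2, a ventral progenitor factor, at 0.96 ± 0.20 (limma adjusted p = 0.0672). Dlx1 was at 1.68 ± 0.42 (limma adjusted p = 0.113). Isl1 and Dlx1 were well above background on 0 control arrays, so their fitted differences are no measure of fold.

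**Figure D4:**
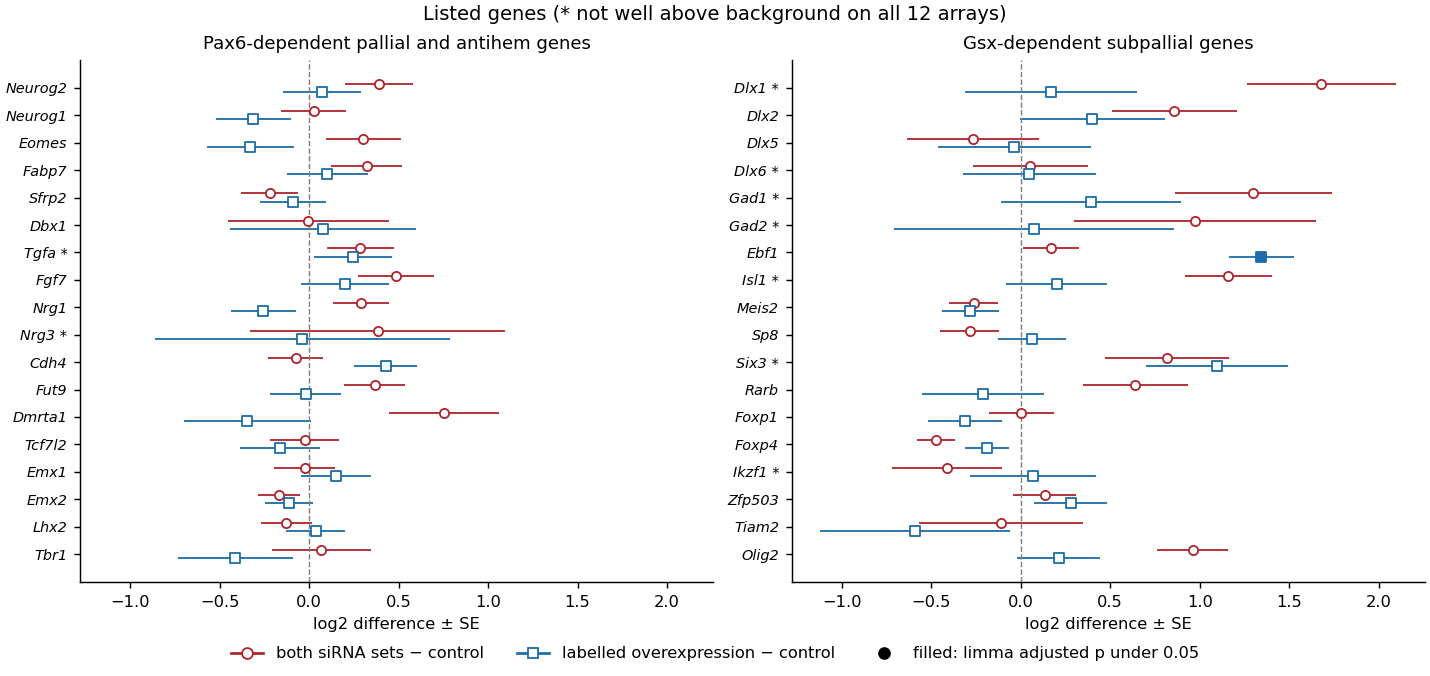
Each row gives the log2 difference (± SE) of a listed gene (those reported here) for both siRNA sets and for labelled overexpression, each against control siRNAs, with filled symbols for a limma adjusted p under 0.05 and an asterisk for a gene not well above background on all 12 arrays. The only filled symbol is Ebf1 on the arrays labelled overexpression (1.34), and Dlx1, Gad1 and Isl1, with the largest siRNA values in the Gsx-dependent list, carry an asterisk.

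Other cell types were read beside Pax6. All 8 telencephalic progenitor markers were well above background on all 12 arrays. Vim, an intermediate filament gene, fell by 0.58 ± 0.11 between the siRNA sets and labelled overexpression (limma adjusted p = 0.025), where 0.833% of genes were called lower. On slides 1, 2 and 3 it stood at 5.50, 5.33 and 5.41 in controls. With set 1 it stood at 5.98, 5.71 and 5.97, and with set 2 at 5.86, 5.79 and 5.55. All siRNA arrays lay above all controls. Those labelled overexpression, at 5.38, 5.16 and 5.16, overlapped the controls. Apart from Pax6 and Vim, the siRNA differences of those given here ran from -0.22 for Sox2 to -0.13 for Lhx2. Of 9 subpallial markers 7 were tested, and Dlx1, Gad1 and Isl1 were well above background on no control array. The summed level of the 7, as a multiple of the 75th percentile signal, was 3.29 to 5.31 in controls, 2.55 to 5.41 in set 1, 2.79 to 4.92 in set 2 and 2.70 to 4.44 on the arrays labelled overexpression. Most of that sum was Lhx6 (5.04 of 5.31 on slide 1 of the controls), so it says little of the other markers. With the siRNA sets limma called 0 of the 7, and 4 were higher at an unadjusted p under 0.05, which 12% of all genes passed. The median difference of the 7 was 0.97, and -0.10 over the 3 that cleared background on every array. Eye-field markers, from a tissue that also expresses Pax6, gave 0 calls of 4 tested (Six6 was not tested). With the siRNA sets 3 of the 4 were higher at an unadjusted limma p under 0.05, which 12% of all genes passed. The median siRNA difference of the 4 was 0.64. Their summed level was 0.77 to 1.20 in controls, 1.84 to 2.58 in set 1, 1.14 to 1.36 in set 2 and 1.097 to 1.62 on the arrays labelled overexpression. Most of it was Otx2 (2.28 of 2.58 on slide 2 of set 1), so it says little of the other markers. Of 7 microglial and macrophage markers tested (P2ry12 was not), Aif1, Cx3cr1 and Tyrobp rose by 1.13 to 1.53 with the siRNA sets and by 1.61 to 1.95 on the arrays labelled overexpression. Limma called these 3 in both comparisons, where 0.703% and 0.28% of all genes were called. Set 1 alone gave 0 calls among the 7 and set 2 gave 5, beside 0.215% and 0.943% of all genes. In both comparisons 6 of the 7 differences were positive, and that of Csf1r was not. C1qa was also called with the siRNA sets, but only 1 of its 3 control arrays was well above background, so no size is given. The summed level of the 7 was 2.28 to 5.91 in controls, 2.06 to 5.47 in set 1, 3.19 to 6.02 in set 2 and 3.16 to 6.11 on the arrays labelled overexpression. Most of it was Csf1r (5.64 of 5.91 on slide 1 of the controls), so the sum hardly shows the rise of the others. The part of these cell types in the Pax6 values was not tested.

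The genes whose pattern was most like that of each member were found by Pearson r over the 12 arrays, after each slide's mean was subtracted, among 13336 genes well above background on every array. For Pax6 they included Gpd2 (0.983), Eif4g2 (0.971), Arhgap42 (0.966) and Lats2 (0.964), and 1 of the top 5, Gpd2, was also among the top 5 without the subtraction. Gpd2, a mitochondrial glycerol phosphate dehydrogenase, was 0.58 above controls with the siRNA sets (limma adjusted p = 0.110). For Gsx1 they were Rspo3 (0.889), Echdc2, Cd99, Hes2 and Tll1, none of which was in the top 5 without the subtraction. For Gsx2 they were Mknk1 (0.947), Hlx, Psmg3, Pcdh1 and Galp, of which 2 were. These likenesses are over 12 arrays that share slides and groups, were the best of many genes, and describe these arrays alone.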

How the data were processed

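Expression was read on 12 one-colour Agilent arrays, and the members and gene lists were chosen with earlier results of these data known. The spot intensity came as processed signal from the scanner software (Agilent Feature Extraction, version 10.5.1.1), background-subtracted and not scaled between arrays, per the file headers and the submitters' processing notes. The authors also deposited a table of log2 values, which correlated above 0.999 with the scanner values scaled to the 75th percentile and centred per probe (column medians -0.13 to 0.10). It served as an alternative, and so did the deposited median intensities.

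Control spots and outlier spots (136 to 218 of 43020) were left out, each array's 75th percentile of log2 signal was taken off, and repeat spots of a probe were averaged. Probes were named through RefSeq accessions in a table of assembly GRCm38.p6 (32334 of 39429 had one, 26055 were named), while the array annotation used another build. Probes well above background on at least 3 of 12 arrays were kept, and each gene took its probe with the highest mean, which left 15369 genes. The 75th percentile signal ran from 572 to 1143, 67.1% to 72.2% of the spots on an array cleared background, and none was saturated. The number of arrays limits the precision.

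Groups were compared in limma 3.58.1 (R 4.3.3) over all 12 arrays, 1 mean per group, with Benjamini-Hochberg adjustment, a threshold of 0.05 and two-sided tests. Errors are moderated. On simulated data with 15295 genes, for both siRNA sets against controls, 72% of log2 changes of 1 and 93% of log2 changes of 2 were recovered, with 11 false calls. The simulated noise was independent between arrays and had no slide effect, so these rates need not hold for the real arrays. Replicate numbers are slides: deviations of arrays on 1 slide correlated at 0.0586 to 0.684, and of arrays on other slides at -0.619 to 0.219. The first principal component, with 29.6% of the variance, followed the slide. The slide was therefore also fitted as a block. Named list members were those called, or else the first 6 of a list well above background on all arrays. Some listed genes are not reported here.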

Additional observations from a re-analysis of the deposited data

Results flagged for a closer look

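The Pax6 effects of the siRNA sets and of labelled overexpression differed by -1.52 log2 units (± 0.27, limma adjusted p = 0.0173). It was marked because this direct comparison passed the test, whereas neither treatment passed against the controls without the slide block. The estimate uses no control array, but its error was fitted over all 12 arrays, controls included.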

How the results depend on the processing

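Settings changed the Pax6 calls more than the Pax6 values. The main Pax6 probe kept its sign under every alternative run in the comparisons of both sets and of labelled overexpression with controls and with each other. With the slide as a replicate block the siRNA difference of 1.06 passed the threshold (limma adjusted p = 0.0376), the labelled overexpression difference from the siRNA sets stayed past it, and no other call on a member changed. The exact permutation test of the -1.52 difference did not pass after adjustment. Leaving out 1 array at a time gave -1.67 to -1.36 for that comparison. Of 3 within-slide differences, 1 always lies at least 1 SD from their mean, so naming it does not mark a slide as deviant. For the siRNA sets, the differences farthest from that mean were 1.59 for Pax6 on slide 2, 0.44 for Gsx1 and -0.43 for Gsx2 on slide 1. For labelled overexpression they were -0.37 for Pax6 on slide 3, 1.07 for Gsx1 on slide 1 and 0.45 for Gsx2 on slide 2. Between labelled overexpression and the siRNA sets they were -2.10 for Pax6 on slide 2, 0.63 for Gsx1 on slide 1 and -0.27 for Gsx2 on slide 3. Gsx1 and Gsx2 changed sign under several alternatives, with no call. Gsx2 was read close to background, which limits what can be read. Gsx1 followed the slide, which held 88.0% of its variance. Of all genes, 108 were called for both siRNA sets, 33 for set 1, 145 for set 2, 43 for labelled overexpression, 12 between the sets and 331 between labelled overexpression and the sets. With the block the counts were 234, 115, 362, 56, 37 and 530. With no filter they were 37 for both sets, 26 for set 2 and 0 between the sets, and with the filter on all 12 arrays 26 for labelled overexpression. Scaled to the median they were 55 for both sets, 14 for set 1, 50 for set 2 and 1 between the sets. Normexp on the median signals, chosen after seeing the data, gave 39 for both sets, 56 for set 2, 24 for labelled overexpression and 20 between the sets. With dim signals at the floor set 1 had 50, and with only the arrays compared both sets had 36 and set 1, set 2 and their difference 0. Leaving out 1 array at a time gave 17 to 88, 4 to 84, 10 to 145, 19 to 55, 0 to 12 and 106 to 329 in the same order. Why these counts moved was not tested. Normexp on the mean signal was not run, because the files hold no such column.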
